A study of Mus musculus with 4 samples.

Results

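The transcripts described here encode the cyclins and cyclin-dependent kinases that carry a cell through G1 and into S phase. They are the D-type cyclins *Ccnd1*, *Ccnd2* and *Ccnd3*, the kinases of these cyclins *Cdk4* and *Cdk6*, the E-type cyclins *Ccne1* and *Ccne2*, the A-type cyclin *Ccna2* and the kinase *Cdk2*. The members were listed by gene name, with no measured value in the rule, but with earlier results of these data known. Every probe set annotated to exactly 1 of these genes was taken. All 9 genes were measured, each by 1 probe set, out of 21044 probe sets annotated to 1 gene (19452 genes), and 0 probe sets joined a member with another gene.

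RNA was recovered from lysates of proliferating C2C12 (LKO1) cells, a mouse myoblast line that carries an empty lentivirus vector and was grown in medium with serum and puromycin, below confluency so that it would not differentiate. In the 2 CUGBP1 IP samples it was immunoprecipitated with the monoclonal antibody 3B1 against CUGBP1, and in the 2 control IgG samples with normal IgG. Each sample went to 1 Affymetrix Mouse Gene 1.0 ST array. All 4 samples came from this 1 line with normal CUGBP1, and the input RNA was not analysed here.

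D-type cyclins are made in response to growth signals and activate Cdk4 or Cdk6, which phosphorylate the retinoblastoma protein. E-type cyclins then activate Cdk2 at the G1/S boundary, and cyclin A2 takes over Cdk2 during S phase. In myoblasts this machinery keeps cells proliferating, and parts of it are withdrawn when they leave the cycle and fuse, while *Ccnd3* accumulates. CUGBP1 binds GU-rich elements of mRNA, mostly in 3′UTRs, and can bring a deadenylase to the transcript.

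Intensities are multiples of each array's 5th percentile, so a probe set with no transcript reads about 1. As the upper end of background the 95th percentile of 1198 probe sets of olfactory and vomeronasal receptors was used, which lay between 1.09 and 1.29 over the 4 arrays. The arrays of a group were not equally bright. Over the 7727 probe sets above that background on all 4 arrays, the median of replicate 2 over replicate 1 was 1.48 for control IgG and 1.26 for the CUGBP1 IP. The 10 myoblast markers examined were above background on both CUGBP1 IP arrays, and 9 were on all 4, the exception being *Cdh15*. Of 16 measured markers of other cell types 1 was above background on all 4 arrays, the keratin *Krt14*, and 3 were on both CUGBP1 IP arrays (*Apoa1*, *Plin1* and *Krt14*). *Alb*, *Ptprc*, *Pecam1* and *Adipoq* were on none. The summed intensity of the 16 ranged from 18.6 to 20.6 in the CUGBP1 IP and from 16.7 to 18.4 in control IgG, and their part in any result was not tested.

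*Ccnd1*, *Ccnd2* and *Cdk6* stood apart from the other 6 members in the CUGBP1 immunoprecipitate. Their signal-to-negative ratios (mean CUGBP1 IP intensity divided by mean control IgG intensity) were 6.61, 4.81 and 6.25, and those of the other members ran from 1.57 for *Ccnd3* to 2.13 for *Cdk2*. The study took the top 5% of ratios as associated with CUGBP1. The same share was taken here over the 21044 probe sets tested, so the set and its start, a ratio of 2.57, are not those of the study. It held 3 of the 9 members, where by construction it holds 5% of all probe sets. *Cdk6* alone among the members was called higher (limma adjusted p = 0.0198), against 1.95% of all probe sets called higher, and 0 were called lower (0.138% of all probe sets). At an unadjusted p under 0.05 limma had 5 members, all higher, where 28.6% of all probe sets were. As the replicates are not stated to come from separate cultures, p-values measure only the spread between these samples, which may be technical. A larger value cannot tell more cells holding a transcript from more of it per cell, nor, without the input, binding from abundance in the lysate.

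**Figure D1:**
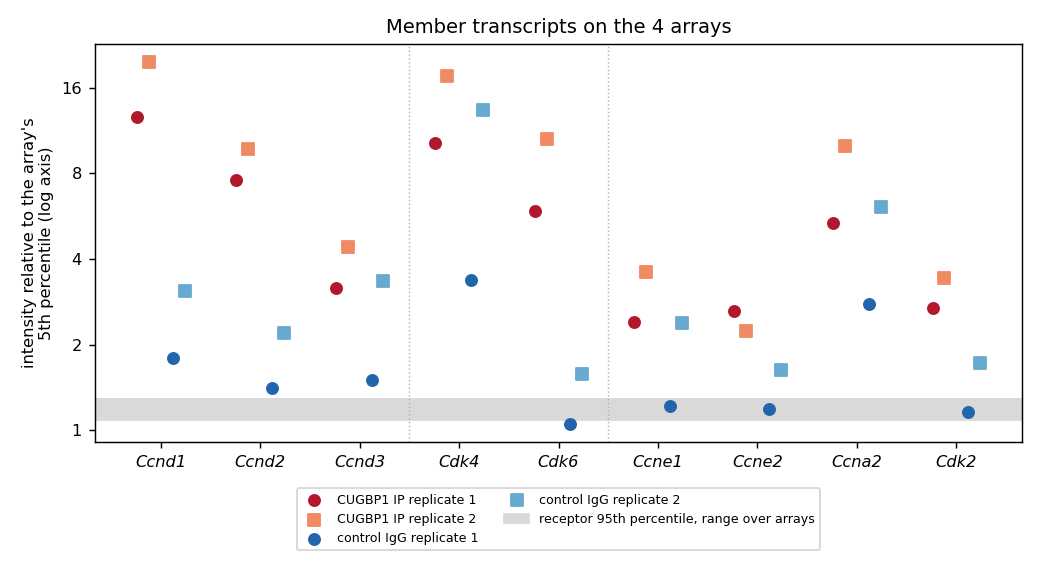
Intensity of each member relative to the array's 5th percentile (log axis) on the 2 CUGBP1 IP arrays (red) and the 2 control IgG arrays (blue), with circles for replicate 1, squares for replicate 2 and the grey band over the receptor 95th percentiles of the 4 arrays. *Ccnd1*, *Ccnd2* and *Cdk6* show the widest gaps between red and blue, and for *Ccnd3*, *Cdk4* and *Ccna2* control IgG replicate 2 lies above CUGBP1 IP replicate 1.

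Of the D-type cyclins, *Ccnd1* (probe set 10569646), the form most widely tied to mitogen signalling, had the highest ratio of all members. The CUGBP1 IP arrays read 12.6 and 19.7 (16.1 ± 5.02, SD, n = 2), and the control arrays 1.80 and 3.08 (2.44 ± 0.905, SD, n = 2). The groups were far apart, with the lower CUGBP1 IP value 4.09 times the higher control value. The log2 difference was 2.74 (SE 1.07, limma adjusted p = 0.110), and its ratio ranked 131 of 21044. The study named *Ccnd1* among the CUGBP1-bound transcripts of these samples, so its place in the top 5% is not independent evidence.

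*Ccnd2* (probe set 10548105), a D-type cyclin with the same kinase partners, showed the same order of arrays. The CUGBP1 IP arrays read 7.57 and 9.74 (8.66 ± 1.53, SD, n = 2), and the control arrays 1.41 and 2.19 (1.80 ± 0.552, SD, n = 2). The groups did not overlap, and the log2 difference was 2.29 (SE 0.79, limma adjusted p = 0.0808). Its ratio ranked 260 of 21044.

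*Ccnd3* (probe set 10445688), the third D-type cyclin and the one that myoblasts accumulate as they differentiate, had the lowest ratio of the members, 1.57. It gave 3.17 and 4.41 with the CUGBP1 antibody (3.79 ± 0.877, SD, n = 2) and 1.5 and 3.34 with IgG (2.42 ± 1.30, SD, n = 2). The groups overlapped, because control IgG replicate 2 was above CUGBP1 IP replicate 1. The log2 difference was 0.74 (SE 0.60, limma adjusted p = 0.325).

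The kinases of the D-type cyclins gave unequal ratios. *Cdk6* (probe set 10519324) rose, with 5.91 and 10.5 after CUGBP1 immunoprecipitation (8.22 ± 3.27, SD, n = 2) and 1.05 and 1.58 on the control arrays (1.32 ± 0.375, SD, n = 2). Control IgG replicate 1 was within the background range and control IgG replicate 2 above it. The log2 difference was 2.61 (SE 0.67, limma adjusted p = 0.0198). The 3 other genes whose 4 log2 values were nearest to those of *Cdk6* were *Itfg2*, *Cdh24* and *Incenp*, at Euclidean distances of 0.16, 0.23 and 0.29, with ratios from 6.49 to 6.73.

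*Cdk4* (probe set 10366814) gave 10.3 and 17.6 with the CUGBP1 antibody (13.9 ± 5.18, SD, n = 2) and 3.38 and 13.3 with IgG (8.36 ± 7.04, SD, n = 2). It was thus bright in control IgG as well, and the groups overlapped. The log2 difference was 1.00 (SE 1.27, limma adjusted p = 0.507) and the ratio 1.67. Its control arrays differed by 3.95-fold, the widest replicate gap among the members.

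The call of *Cdk6* and not of *Ccnd1* rests on the intensity trend of limma's error. From their own replicates alone the SE of the log2 difference was 0.51 for *Cdk6* and 0.50 for *Ccnd1*, whereas the moderated SE was 0.67 and 1.07. Without the trend the limma adjusted p was 0.145 for *Cdk6* and 0.143 for *Ccnd1* and *Ccnd2*, with 0 of 9 members called and 5 at an unadjusted p under 0.05. Of all 21044 probe sets 0 were then called in either direction, and 4757 had an unadjusted p under 0.05 by limma.

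**Figure D2:**
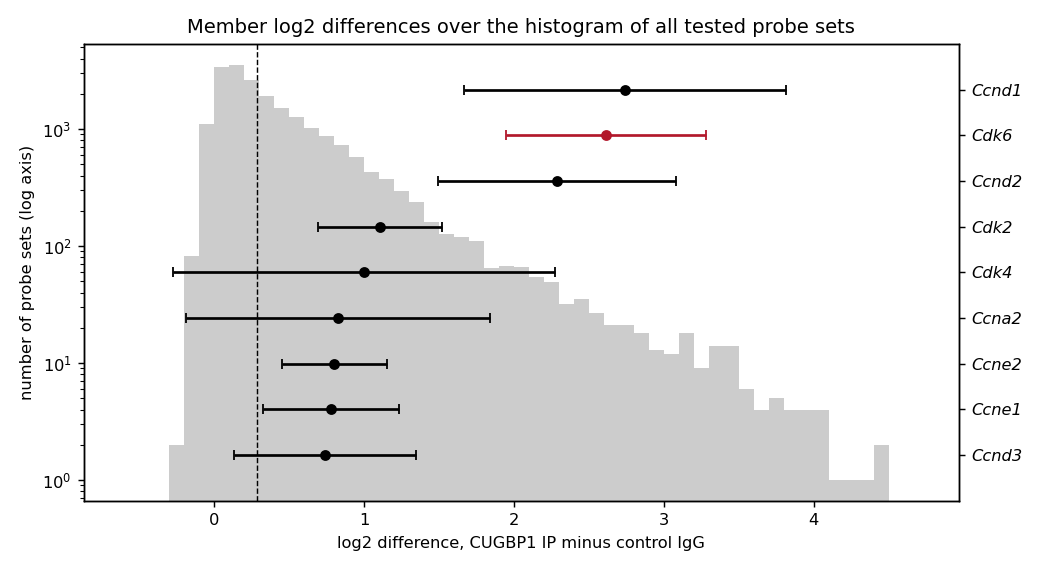
Log2 difference of each member (CUGBP1 IP minus control IgG, points with moderated SE of limma, n = 2 arrays per group) over the histogram of 21044 probe sets (grey, number on a log axis), with the dashed line at their median, 0.29. *Cdk6* (red) passed the limma threshold, *Ccnd1* and *Ccnd2* lie beside it with wider bars, and the other members lie between 0.74 and 1.11.

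The members acting at the G1/S boundary and in S phase had smaller ratios than *Ccnd1*, *Ccnd2* and *Cdk6*, and 0 of 4 were in the top 5%. They lay between percentile 81.2 and percentile 91.3 of all probe sets, many of which are dim. A filter on dim probe sets kept the 7727 that exceeded the receptor range on every array. Among those the same 4 members lay lower, at percentile 54.4 for *Ccne1*, 60.1 for *Ccna2*, 60.3 for *Ccne2* and 78.4 for *Cdk2*. Their rank over all probe sets thus does not set them far apart from other bright transcripts. *Cdk2* (probe set 10373530), their common kinase, gave 2.69 and 3.44 with the CUGBP1 antibody and 1.16 and 1.72 with IgG. The groups did not overlap, the ratio was 2.13 and the log2 difference was 1.11 (SE 0.41, limma adjusted p = 0.0963). *Ccne2* (probe set 10503264), an E-type cyclin, read 2.63 and 2.24 against 1.19 and 1.63, without overlap (ratio 1.73, limma adjusted p = 0.139). It was the member in which CUGBP1 IP replicate 1 was the brighter of the pair.

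*Ccne1* (probe set 10562563), the other E-type cyclin, gave 2.40 and 3.59 with the CUGBP1 antibody and 1.22 and 2.39 with IgG. Its groups were separated by the last digit only, 2.40 against 2.39 (ratio 1.66, limma adjusted p = 0.203). *Ccna2* (probe set 10497831) read 5.36 and 9.97 against 2.78 and 6.11, and these overlapped (ratio 1.72, limma adjusted p = 0.492). Over all members 6 of 9 had no overlap between groups, with the CUGBP1 IP higher, which is close to the 66.3% of all probe sets that did, so this count says nothing particular about the members.

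The choice of control array moved the members unequally. Against control IgG replicate 1 alone the ratios were 8.97 for *Ccnd1* and 6.14 for *Ccnd2*. For *Cdk6* it was at least 7.54, the bound against the upper end of background, since that control value was within background. Against control IgG replicate 2 alone they were 5.24, 3.95 and 5.20. The 95th percentiles of all probe sets were 3.97 and 2.12 in these comparisons, so these 3 transcripts were in the top 5% against either control. *Cdk4* had 4.12 against control IgG replicate 1 and 1.04 against control IgG replicate 2, which put it at percentile 95.4 and percentile 24.9. *Ccnd3* went from 2.53 to 1.13, *Ccna2* from 2.76 to 1.25 and *Ccne1* from 2.45 to 1.25, each by over 1.5 times, while *Ccne2* had 2.05 and 1.49 and *Cdk2* 2.64 and 1.78. All 9 members were above 1 against either control, as were 94.6% of all probe sets against control IgG replicate 1 and 86.6% against control IgG replicate 2.

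**Figure D3:**
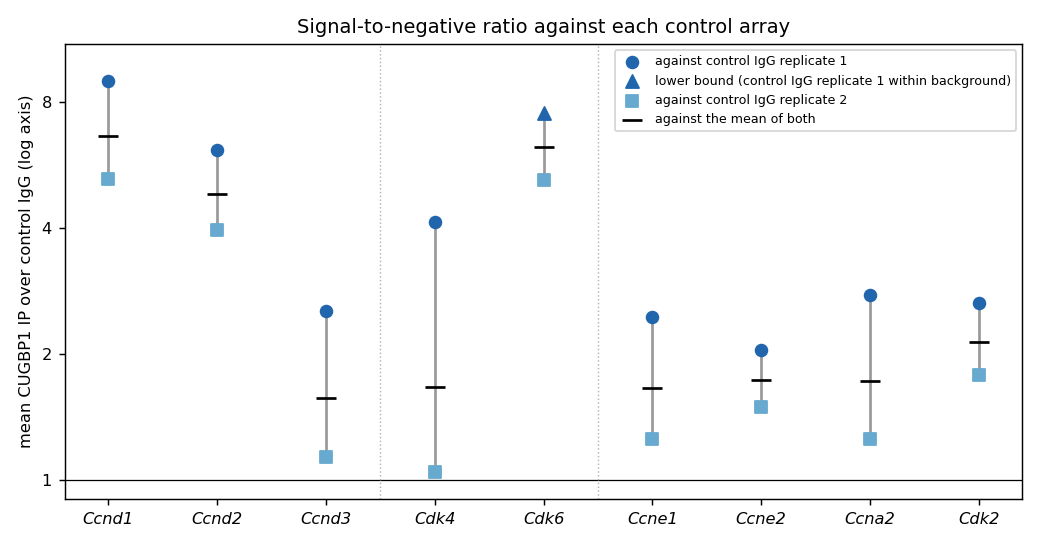
Mean CUGBP1 IP intensity divided by control IgG replicate 1 (dark circles, or a triangle for the lower bound of *Cdk6*), by control IgG replicate 2 (light squares) and by the mean of both (short black bars) for each member, on a log axis. The span is longest for *Cdk4*, from 1.04 to 4.12, and the values of *Ccnd1*, *Ccnd2* and *Cdk6* stay at or above 3.95.

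Taking each CUGBP1 IP array over each control array gives 4 ratios per member, which show how far the order of the members holds when genes are compared on the same arrays. The lowest of them was 3.74 for *Cdk6*, 4.09 for *Ccnd1* and 3.46 for *Ccnd2*. Each of these 3 genes, which were set apart here by their mean ratios, exceeded each of the other 6 in all 4 ratios. *Ccnd1* and *Cdk6* both exceeded *Ccnd2* in all 4, while *Ccnd1* exceeded *Cdk6* in 3 of 4. The ratios of *Cdk6* to control IgG replicate 1 divide by a value within background, so the order of *Ccnd1* and *Cdk6* against that array cannot be told. Among the other 6 members 2 of 15 pairs kept 1 order throughout, *Cdk2* over *Ccne1* and *Cdk2* over *Ccnd3*. The ratios of *Cdk4* ran from 0.769 to 5.20 and those of *Ccna2* from 0.877 to 3.59.

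Related members were then compared within each array, which cancels any single scaling factor of the array. Of 7 pairs, which share members and are not separate observations, 5 had no overlap between the CUGBP1 IP and control IgG arrays, as did 61.1% of all pairs of genes, so the count itself is no result about these pairs. The log2 of *Ccnd1* over *Ccnd3* was 1.99 and 2.16 after CUGBP1 immunoprecipitation, and 0.26 and -0.12 after control IgG, a difference of 2.00 (SE 0.21). For *Ccnd2* over *Ccnd3* that difference was 1.55 (SE 0.27), from 1.26 and 1.14 with the CUGBP1 antibody, and -0.09 and -0.61 with IgG. *Ccnd1* and *Ccnd2* differed less from each other, by 0.45 (SE 0.16, and 0.17 with quantile normalization).

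*Cdk6* over *Cdk4* was -0.80 and -0.74 on the log2 scale after CUGBP1 immunoprecipitation and -1.69 and -3.08 on the control arrays, a difference of 1.61 (SE 0.70, and 2.60 with quantile normalization). Most of the spread came from the control arrays. *Cdk6* was within background on control IgG replicate 1, so differences that use that array, the 1.61 and the 2.60 included, rest on a value at the floor. The difference was 0.92 without control IgG replicate 2, again with that floor value, and 2.31 without control IgG replicate 1. For *Ccnd1* over its kinase *Cdk4* the difference was 1.74 (SE 0.61), with 1.14 and 2.34 under the same omissions. The groups overlapped for *Ccne1* over *Ccne2*, with a difference of -0.02 (SE 0.48), and for *Cdk2* over *Ccna2* (0.28, SE 0.39, and 1.17 with quantile normalization). With 2 arrays against 2 the two-sided exact permutation test cannot give a p below 0.333, which 5 of the 7 pairs had (0.467 after Benjamini-Hochberg adjustment over the 7), so none of these differences could pass.

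The scaling between arrays moved the members unequally. Quantile normalization, which forces the 4 arrays to 1 distribution, moved the median log2 difference of all probe sets from 0.29 to -0.02. *Ccnd1*, *Ccnd2* and *Cdk6* then had ratios of 2.42, 2.16 and 3.82, and these 3 of 9 members were called higher, against 2.02% of all probe sets (limma adjusted p = 0.0296, 0.0260 and 0.00294). *Ccna2*, *Cdk4*, *Ccnd3* and *Ccne1* turned to ratios below 1, of 0.578, 0.637, 0.738 and 0.931, and *Ccna2* and *Cdk4* then lay at percentile 0.718 and percentile 1.74 of all probe sets. *Cdk2* and *Ccne2* stayed above 1, at 1.29 and 1.08. None of the 4 that turned was called (limma adjusted p from 0.204 to 0.899). Relative to the median of all probe sets their log2 differences as deposited were 0.54, 0.71, 0.45 and 0.49. They stayed positive with each array scaled to its median (0.45 to 0.71) or to the receptor probe sets (0.72 to 0.98). Their direction thus depends on which scaling is used, and of those tried only quantile normalization turned it. With each array scaled to its median 3 of 9 members were called higher (6.47% of all probe sets), *Ccnd2*, *Cdk2* and *Cdk6*, and *Ccnd1* was not (limma adjusted p = 0.117). With scaling to the receptor probe sets 1 was (1.9%), with an offset of 1 before log2 1 was (3.63%), and among probe sets above background on all 4 arrays, which leave out *Cdk6*, *Ccnd2* was the 1 called (3.49%).

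**Figure D4:**
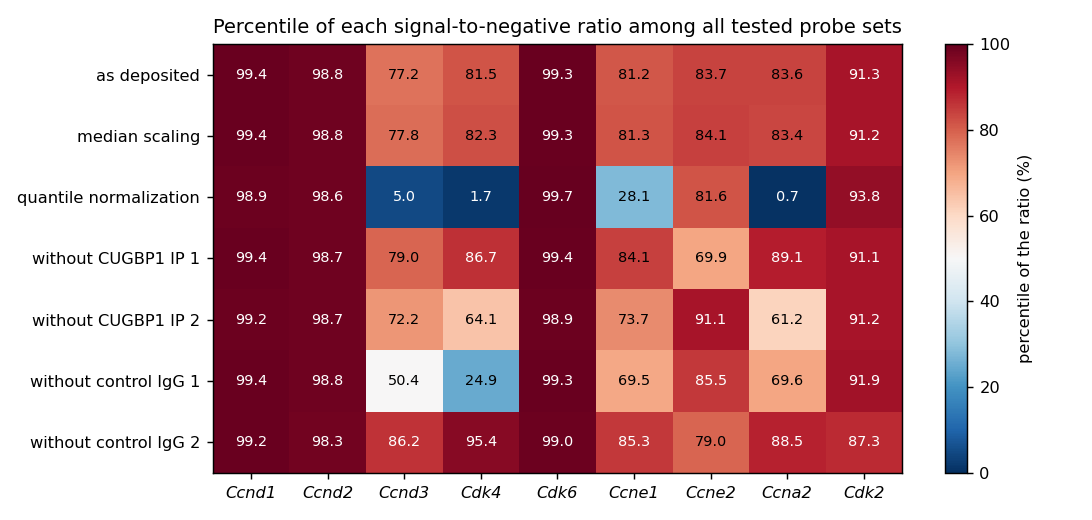
Percentile of each member's signal-to-negative ratio among all tested probe sets (colour and printed value) as deposited, under 2 scalings and with each array left out. *Ccnd1*, *Ccnd2* and *Cdk6* stay at or above percentile 98.3 throughout, and *Cdk4* ranges from 1.74 to 95.4.

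Other genes of the pathway were examined in 6 lists, also chosen with earlier results of these data known, of which 90 of 94 genes were measured. Of these 3 were called higher and 0 lower, against 1.94% of all genes called higher, and 15 were in the top 5%, against 4.97% of all genes. At an unadjusted p under 0.05 limma had 32 of the 90, where 29.4% of all genes were. The groups did not overlap for 78 of the 90, with the CUGBP1 IP higher, as for 67.1% of all genes. The median log2 difference of the 90 was 0.72, and that of all genes was 0.29. However, 72 of the 90 were above background on all 4 arrays. Over the 7727 probe sets above background on all 4 the median was 0.73, so 0.72 does not set the lists apart from other bright transcripts. The top 5% of those 7727 started at a ratio of 4.01, against 2.57 over all probe sets. The count of 15 therefore cannot be read against 4.97% alone.

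Among 19 other cyclins *Ccnt2*, a cyclin of the transcription elongation kinase Cdk9, rose with 4.04 and 4.90 against 1.17 and 1.52 (ratio 3.32, limma adjusted p = 0.0377). *Ccnf*, which encodes the F-box protein cyclin F, had the highest ratio of that list, 4.15 (limma adjusted p = 0.0646), and *Ccnb3* the lowest, 1.03. Of 19 other CDKs *Cdkl1* was called (limma adjusted p = 0.0372), but all 4 of its values, 1.06, 1.18, 0.94 and 1.00, were within the background range. *Cdk1*, the mitotic kinase, read 11.6 and 18.1 against 1.69 and 3.56, a ratio of 5.65 that was the highest of the 90 genes (limma adjusted p = 0.124). *Cdk15* had the lowest ratio of its list, 1.06.

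The direct regulators of the members had 0 calls by limma in each of the next 3 lists, and 2 of 6, 3 of 12 and 6 of 16 genes at an unadjusted p under 0.05. With 1.94% and 29.4% of all genes doing so, these counts set the regulators apart in neither respect. Of 7 listed CDK inhibitors 6 were measured, and 0 of these were in the top 5%. Their ratios ran from 1.20 for *Cdkn2b*, which encodes p15, to 2.26 for *Cdkn1b*, which encodes p27 (limma adjusted p = 0.172). *Cdkn1a*, which the study named as recognized by both CUGBP1 and HuR, was not among the 6, so nothing is said of it here. Of 12 CDK activators and adaptors *Cdc25b*, a phosphatase that activates CDKs, had the highest ratio, 4.71 (limma adjusted p = 0.126), and *Cables1* the lowest, 1.04. Of 16 kinases and ligases that act on these cyclins and kinases *Wee1*, which inhibits CDKs, had the highest ratio, 5.17 (limma adjusted p = 0.0644), and *Usp2*, a deubiquitinase acting on cyclin D1, the lowest, 1.13. The study named *Wee1* among the transcripts found in this CUGBP1 immunoprecipitate, so its high ratio is not independent evidence.

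Downstream of the D-type cyclins, among 18 genes of RB proteins and E2F partners, *E2f3*, a transcription factor that drives S phase genes, rose. The CUGBP1 IP arrays read 4.86 and 5.94 and the control arrays 1.19 and 1.41 (ratio 4.15, limma adjusted p = 0.0258). It had the highest ratio of its list, and *Lin9*, a subunit of the complex that represses or activates cell cycle genes, the lowest, 1.27. The list held 3 of 18 genes in the top 5%, against 4.97% of all genes, and its median log2 difference was 0.78. Of its genes 16 were above background on all 4 arrays, and all probe sets above it had a median of 0.73. The 0.78 thus does not set the list apart from other bright transcripts.

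**Figure D5:**
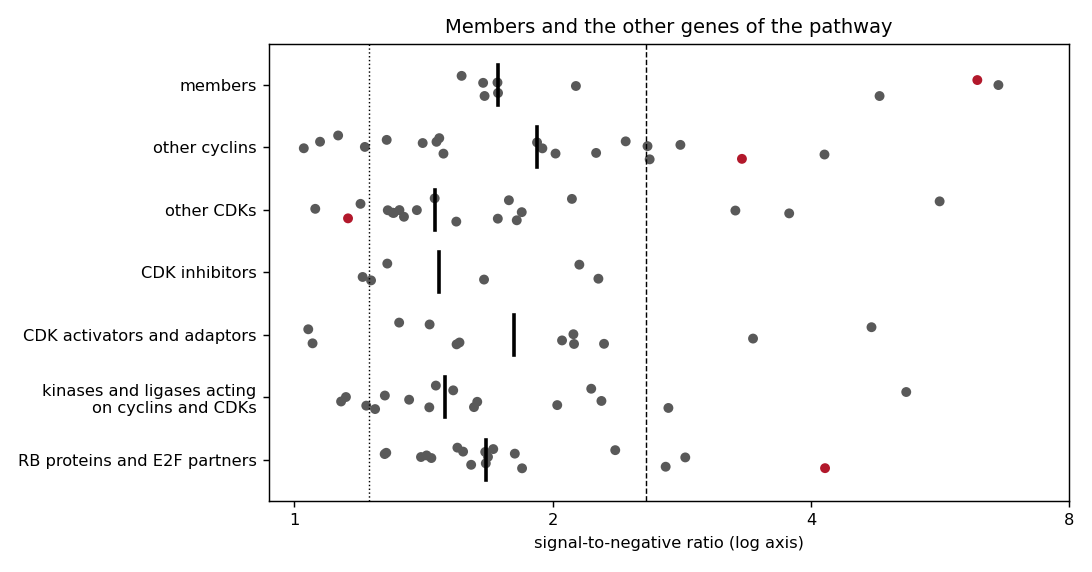
Signal-to-negative ratio (log axis) of the 9 members and of the 6 lists of other genes of the pathway, 1 point per gene, red for those called by limma and black bars for list medians, with the dotted line at the median of all probe sets, 1.22, and the dashed line at the start of the top 5%, 2.57. *Ccnd1* and *Cdk6* lie right of the 90 other genes, of which *Cdk1* comes closest at 5.65.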

How the data were processed

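RNA from CUGBP1 and control IgG immunoprecipitates was hybridized by the authors to Affymetrix Mouse Gene 1.0 ST arrays, with 100 ng of RNA per array and 2 arrays per group. The deposited table holds linear intensity values, which the authors divided by the array's 5th percentile. How probes were summarised, and whether background was subtracted first, is not given in the sources used here. Dividing leaves the floor at 1, which pulls ratios of dim probe sets towards 1, and the bright end of the arrays was not equalised. The number of arrays limits the precision.

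Of 25175 probe sets, 21044 were paired with 1 gene by the platform annotation, 1492 with several and 2639 with none, and only the first were tested. Symbols of 20959 were updated through gene identifiers in a RefSeq table of GRCm38.p6, used for names only. The signal-to-negative ratio follows the study's methods. Log2 values were compared by limma 3.58.1 (R 4.3.3, lmFit and trended eBayes, two-sided). Benjamini-Hochberg adjustment ran over all tested probe sets with a threshold of 0.05. The fit was tested on simulated data. "Called" and "rose" refer to this test. Related members were compared with exact permutation tests over samples (Python 3.11.15). Where a gene had several probe sets (876 genes), its brightest on average stood for it. Genes named are all members, each called gene of a list with those of highest and lowest ratio, and the 3 genes nearest to each called member. Groups and replicate numbers came from the sample titles. The members and lists were chosen with earlier results of these data known. Alternatives were 3 other scalings, an offset of 1, no trend, a filter on dim probe sets, a replicate block, geometric means and omission of each array. No sequences are shown.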

Additional observations from a re-analysis of the deposited data

How the results depend on the processing

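The number of members in the top 5% stayed at 3 under the 3 scalings, with geometric means and without either CUGBP1 IP array or control IgG replicate 1. It was 4 without control IgG replicate 2, with *Cdk4* added. Among probe sets above the receptor range on all 4 arrays it was 2 of 8, as *Cdk6* was left out by that filter. With the filter *Ccnd3* and *Cdk4* lay at percentile 45.7 and percentile 55.2, against percentile 77.2 and percentile 81.5 over all probe sets. Each member has 1 probe set, so an average over probe sets gave no other value. The number of members called higher by limma was 3 after median scaling of the arrays, 3 with quantile normalization and 0 without the intensity trend. For genes of the pathway lists, 3 called higher became 13, 5, 9 and 0 with median scaling, quantile normalization, an offset of 1 and no trend (33 at an unadjusted p under 0.05). Over all probe sets, 411 called higher became 1362 with median scaling, 763 with an offset of 1, 270 of 7727 with the filter and 0 without the trend. The 29 called lower became 17 with quantile normalization, and 0 with the filter (2570 in either direction at an unadjusted p under 0.05) or without the trend (4757). limma called 0 in either direction without any 1 array, with 1062 to 6085 at an unadjusted p under 0.05; such a fit has 1 residual degree of freedom, so these say nothing about stability.

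With quantile normalization the log2 difference turned to -0.80 for *Ccna2*, -0.43 for *Ccnd3*, -0.0827 for *Ccne1* and -0.65 for *Cdk4* (ratios 0.578, 0.738, 0.931 and 0.637). The cause was not tested. The difference of *Ccne1* over *Ccne2* turned to 0.0111 with an offset of 1 and ran from -0.43 to 0.39 with an array left out, and that of *Cdk2* over *Ccna2* from -0.0039 to 0.56. With quantile normalization *Cdk2* over *Ccna2* was 1.17, *Cdk6* over *Cdk4* 2.60 and *Ccnd1* over *Ccnd2* 0.17, against 0.28, 1.61 and 0.45 as deposited. Both values of *Cdk6* over *Cdk4* use a control value within background.

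With the replicate number as a replicate block, limma called 6 of 9 members higher, 71 of 90 genes of the lists and 11809 of 21044 probe sets. As most probe sets were called in that fit, the count of members does not set them apart. Deviations of same-numbered arrays from their group means correlated at r = 0.64 across probe sets, but no source says that a number marks a shared lysate, and 2 pairs are too few to show it.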
